A study of Mus musculus with 12 samples.

Results

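Osteopontin, encoded by Spp1, and the 8 genes that encode its best known cell surface receptors were followed across bone marrow-derived macrophages (BMDMs) and fibroblasts. The genes are Spp1 itself, Cd44 and the integrin subunit genes Itgav, Itgb1, Itgb3, Itgb5, Itga4, Itga5 and Itga9. They were taken by symbol from the gene-level count table, in which all 9 were found among 32544 genes, and all 9 were among the 14285 genes kept for testing. RNA had been sequenced from 12 libraries in 4 groups of 3. The first group was WT BMDMs, from LysMCre mice, and the next was PHD2cko BMDMs, from mice that carried the conditional PHD2 knockout and LysMCre. Both were on C57Bl6/J and were sampled 24 h after seeding. The other 2 groups were 3T3 cells, an established mouse embryonic fibroblast line, sampled after 72 h in medium conditioned by WT or by PHD2cko BMDMs, which also held L929-conditioned medium, a source of macrophage growth factor. The fibroblasts had been starved in low serum beforehand. LysMCre deletes in myeloid cells at large, so PHD2cko cells are a myeloid and not a macrophage-specific model, and the oxygen condition of the sequenced cultures was not named. The study asked how macrophages without the oxygen-sensing hydroxylase PHD2 signal to fibroblasts, and osteopontin is a secreted protein that could carry such a signal.

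Osteopontin is a phosphorylated glycoprotein of the extracellular matrix that macrophages, osteoclasts and activated mesenchymal cells secrete, and it is best known in the vessel wall and in fibrosis as an adhesive and migratory cue. It holds an arginine-glycine-aspartate motif that is read by integrins of the alpha v class (paired with beta 1, beta 3 or beta 5) and by alpha 5 beta 1. Next to that motif lies a stretch that is read by alpha 4 beta 1 and alpha 9 beta 1 and becomes more accessible once thrombin or matrix metalloproteinases cut the protein. CD44, the main hyaluronan receptor, binds osteopontin without that motif. Integrins work as pairs of 1 alpha and 1 beta subunit, so the transcript of a single subunit does not give the amount of a receptor.

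In GRCm38, the plus-strand gene Spp1 (ENSMUSG00000029304.14) spans bases 104435118 to 104441050 of chromosome 5. The stretch of its coding sequence that carries the integrin contacts is shown because the integrins followed here bind the protein at this place. The 90 bases lie in coding exon sequence of Spp1-201 at chr5:104439451-104439540 (GRCm38, plus strand, 5′ to 3′). Capitals mark the codons of the arginine-glycine-aspartate motif, which starts at codon 144 of 294. The bases that follow encode the stretch for the alpha 4 and alpha 9 integrins.
Spp1 coding stretch: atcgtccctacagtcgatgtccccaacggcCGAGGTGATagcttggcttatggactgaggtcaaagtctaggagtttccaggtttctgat

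PHD2 acts by marking hypoxia-inducible factors (HIFs) for degradation, and these factors bind DNA at a short core motif, ACGTG or GCGTG. Both motifs were searched on either strand in promoters from RefSeq (GRCm38.p6), from 250 bases before to 50 bases after each start, where a stretch that holds a motif on both strands counts as a match on each. For 8 of the 9 genes a promoter was found, 9 promoters in all since Spp1 has 2, and Itgb3 had no entry. A motif stood in 4 of these 9 promoters (44.4%) and in 43.8% of all 32851 promoters. Cd44 held 1 motif at base -29 from its start, Itgb5 1 at base -86 and Itga4 1 at base 8. Itga9 held 3, at bases -248, -138 and -114, but its RefSeq start lies inside the gene as GENCODE annotates it. The promoters of Spp1, Itgav, Itgb1 and Itga5 held none in this window. The 250 bases before the start are shown for the ligand, at the first of its 2 RefSeq starts, the one nearest to the GENCODE start, and for the receptor subunit that went the opposite way in fibroblasts, with the motif in capitals.
Spp1 promoter, chr5:104434861-104435110, plus strand: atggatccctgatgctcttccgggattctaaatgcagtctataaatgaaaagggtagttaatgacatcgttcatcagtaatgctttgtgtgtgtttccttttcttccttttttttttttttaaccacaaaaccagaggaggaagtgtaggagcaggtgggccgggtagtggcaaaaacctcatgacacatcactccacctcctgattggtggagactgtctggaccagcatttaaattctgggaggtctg
Itgb5 promoter, chr16:33829415-33829664, plus strand: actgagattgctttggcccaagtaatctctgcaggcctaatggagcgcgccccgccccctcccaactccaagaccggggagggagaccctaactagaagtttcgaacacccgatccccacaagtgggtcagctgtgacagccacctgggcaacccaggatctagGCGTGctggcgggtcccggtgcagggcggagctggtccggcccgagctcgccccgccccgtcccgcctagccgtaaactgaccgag

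Library totals ran from 15516465 to 25199770 counts, so that 3 counts, taken as the floor of detection, equalled at most 0.193 counts per 1e6 counts (CPM) of the library total. Levels of single genes are given below as CPM normalized by the trimmed mean of M-values (TMM), while summed marker levels, and shares made from them, are CPM of the library total. Egln1, the gene of PHD2, was not lower but higher in the libraries labelled PHD2cko, at 69.6 against 55.4 CPM (log2 fold change 0.33, Benjamini-Hochberg adjusted p = 0.00203 by edgeR's quasi-likelihood test), and directions below therefore follow the labels. The deposited table has 1 value per gene and cannot show a deleted exon. The labelled cell types matched their markers. The summed level of 23 macrophage markers was 41770 to 47780 CPM in BMDMs, and that of 12 fibroblast markers was at most 5.98 CPM there, with Twist1 at 0, against 22450 to 30220 CPM in 3T3 cells. Replicate 1 of 3T3 cells in WT medium stood apart from the other two of its group (when counts were compared over genes, chi-square divided by its degrees of freedom was 23.1 and 24.9, and 2.29 for the pair without it). Nothing states that replicates came from separate mice or cultures, and p-values then measure only the spread between these libraries, which may be technical.

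Transcript levels of ligand and receptors were first compared with each other within each group. For this, TMM-normalized CPM were divided by the length of the longest protein-coding transcript, in kb, and all levels in this paragraph are CPM per kb. Spp1 was the most abundant of the 9 in all 4 groups, followed by Itgb1, the common beta subunit of the alpha 4, alpha 5, alpha v and alpha 9 receptors, and by Itgb5, the partner of alpha v. In WT BMDMs, Spp1 was at 673 ± 39.3, Itgb1 at 173 ± 1.82 and Itgb5 at 146 ± 2.48 (SD, n = 3). By exon length, Spp1 took rank 57 of 13840 genes in WT BMDMs, 39 in PHD2cko BMDMs, 78 in fibroblasts in WT medium and 40 in PHD2cko medium. Spp1 was thus among the most abundant transcripts of macrophages and of fibroblasts alike.

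Below these genes, the order differed between the cell types. In WT BMDMs, Cd44 followed at 52.9 ± 1.29, then Itga4 at 48.6 ± 2.56, Itga5 at 31.4 ± 0.142, Itgav at 21.0 ± 0.415, Itgb3 at 1.81 ± 0.171 and Itga9 at 1.47 ± 0.0616 CPM per kb (SD, n = 3). In PHD2cko BMDMs the order was the same except that Itga9, at 2.20 ± 0.0510, stood above Itgb3, at 1.62 ± 0.0694. In fibroblasts in WT medium, Itga5 came next at 30.7 ± 0.387, then Itgav at 22.7 ± 1.76, Cd44 at 11.9 ± 0.447, Itga9 at 1.44 ± 0.249, Itgb3 at 0.994 ± 0.184 and Itga4 at 0.276 ± 0.136. The order in PHD2cko medium was the same. In no group did the ranges of neighbours in this order overlap over the 3 libraries, and the order did not move when the union of all exons was used as length.

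**Figure D1:**
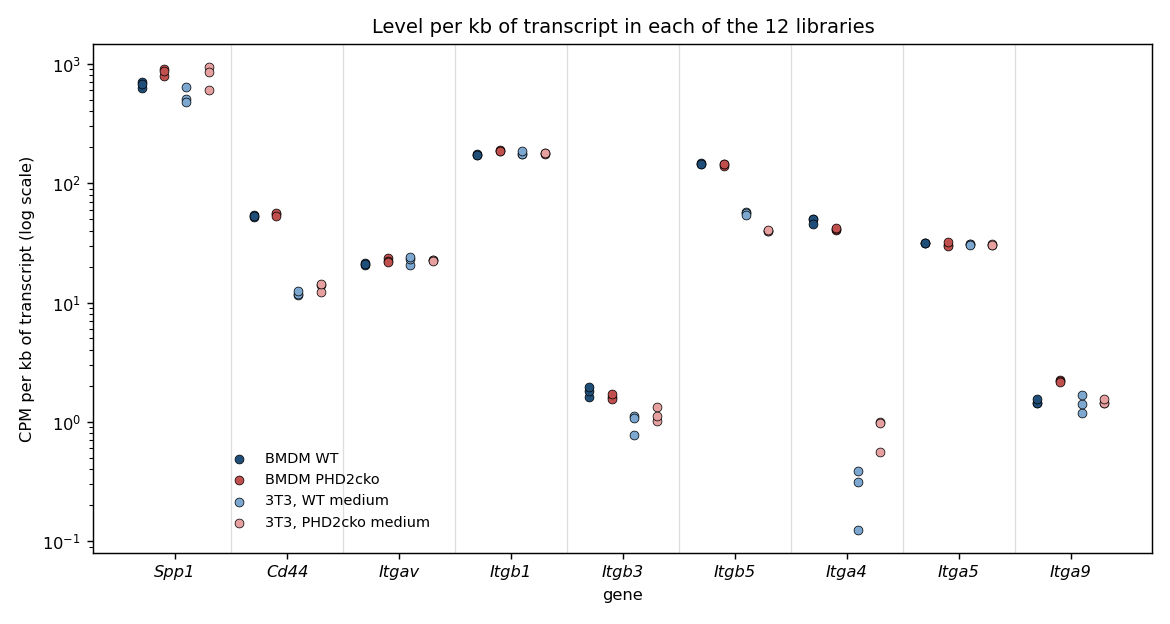
Level of Spp1 and its 8 receptor genes in each of the 12 libraries, in CPM per kb of the longest protein-coding transcript on a log axis, with groups in colour. Spp1 lies above every receptor gene in each library, Itga4 falls from about the level of Cd44 in BMDMs to the bottom in 3T3 cells, and Itgb3 and Itga9 stay near the bottom throughout.

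Among the 4 alpha subunits, Itga4 made up 47.4% ± 1.42 of the summed CPM per kb in WT BMDMs and 0.497% ± 0.237 in fibroblasts in WT medium (SD, n = 3). Itga5 took 30.7% ± 0.686 and Itgav 20.5% ± 0.731 in WT BMDMs, and 55.7% ± 2.44 and 41.2% ± 1.89 in fibroblasts in WT medium. Among the 3 beta subunits, Itgb1 made up 54.0% ± 0.202 and Itgb5 45.4% ± 0.172 in WT BMDMs. In fibroblasts Itgb1 made up 76.1% ± 1.16 in WT medium and 81.2% ± 0.310 in PHD2cko medium, while Itgb5 made up 23.5% ± 1.19 and 18.2% ± 0.253. Itgb3, the beta subunit of the classical vitronectin receptor of osteoclasts and platelets, took at most 0.564% of the beta subunits in any group. Among these 3 alpha v partners, most transcripts in these cells were thus those of Itgb1 and Itgb5. Other beta subunits were not in this sum. Itgb8 was at 24.3 and 24.6 CPM in fibroblasts in WT and PHD2cko medium, against 5.75 and 6.71 CPM of Itgb3, without division by length.

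**Figure D2:**
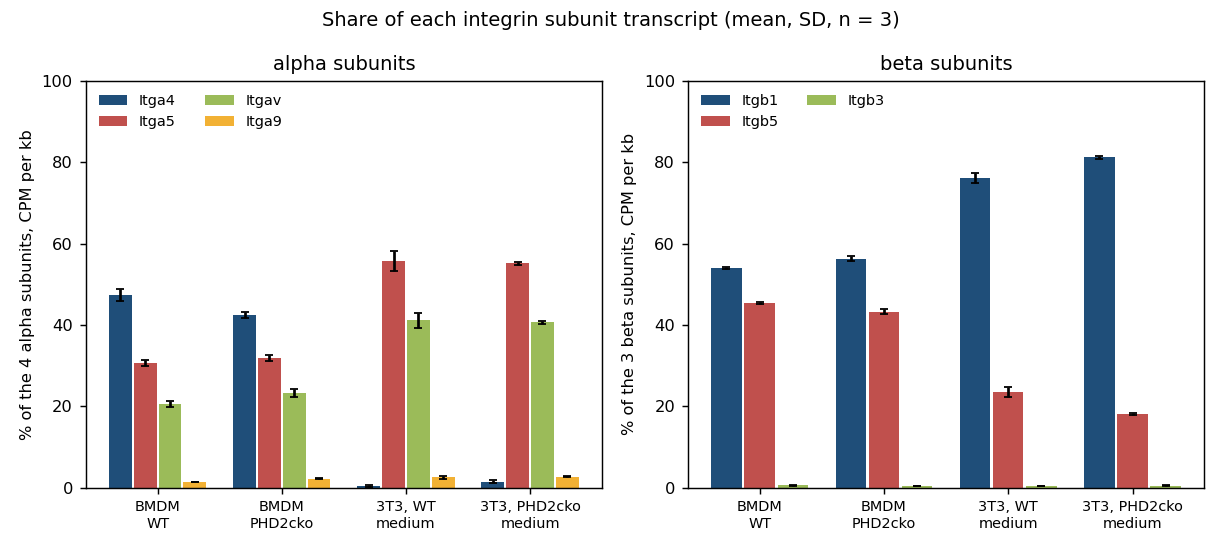
Share of each integrin subunit transcript among the 4 alpha subunits (left) and the 3 beta subunits (right), in % of their summed CPM per kb, as mean with SD over 3 libraries in each group. Itga4 is the largest alpha share in BMDMs and under 2% in 3T3 cells, where Itga5 and Itgav take its place, and the Itgb5 share is lower in 3T3 cells than in BMDMs and lower still in PHD2cko medium.

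Macrophages labelled PHD2cko were then compared with WT macrophages. Of the 9 genes, Itga9 rose and none fell, where 6.73% of all genes passed the threshold, 3.38% upwards and 3.35% downwards. Spp1 was at 1064, 949 and 1030 CPM in WT replicates 1, 2 and 3, and at 1379, 1195 and 1313 CPM in PHD2cko replicates 1, 2 and 3. All 3 PHD2cko libraries lay above all 3 WT libraries, with the lowest PHD2cko library 131 CPM above the highest WT library. The log2 fold change of Spp1 was 0.35 (standard error 0.143, 95% confidence interval 0.04 to 0.66, a 1.28-fold difference), with an unadjusted p of 0.0294 and a Benjamini-Hochberg adjusted p of 0.193 by edgeR's quasi-likelihood test, so that it did not pass the threshold of 0.05. The call differed with the libraries fitted. The main fit took 1 estimate of the spread per gene over all 12 libraries of both cell types. In a fit of the 6 BMDM libraries alone, with their own filter, scaling and spread, the difference had an adjusted p of 0.000127. Over all alternatives the adjusted p ran from 0.000127 to 0.432.

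Itga9, the alpha subunit that pairs with beta 1 to read the stretch next to the main motif, was at 10.1, 10.1 and 10.8 CPM in the WT BMDM libraries and at 15.8, 15.4 and 15.1 CPM in those labelled PHD2cko. The groups did not overlap, and the WT libraries lay close together. Its log2 fold change was 0.58 (standard error 0.105, 95% confidence interval 0.35 to 0.81, 1.49-fold, adjusted p = 0.00503 by edgeR's quasi-likelihood test), and it stayed past the threshold under every alternative run, including each library left out in turn (adjusted p 0.0161 to 0.0287). The level behind this call was low, at 155 to 287 counts a library.

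Itga4, the alpha subunit of the leukocyte receptor for osteopontin and VCAM1, was at 490, 488 and 446 CPM in WT BMDMs and 395, 403 and 411 CPM in PHD2cko BMDMs. Each PHD2cko library was below each WT library, but the log2 fold change of -0.24 (standard error 0.159) had an adjusted p of 0.497 by edgeR's quasi-likelihood test. With the BMDM libraries alone the adjusted p was 0.000188, within a range of 0.000188 to 0.845 over all alternatives. Itgb1 was at 656.6 to 669 CPM in WT and 707 to 720 CPM in PHD2cko BMDMs, again without overlap, with a log2 fold change of 0.11 and an adjusted p of 0.235. It passed the threshold with DESeq2 (adjusted p = 0.0376) and in edgeR with the BMDM libraries alone (adjusted p = 0.0152), within 0.0152 to 0.503 over all alternatives. Itgb1 lies on chromosome 8, 3.74 Mb from Egln1, and whether its position near the targeted gene bears on the difference was not tested.

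The remaining receptor genes differed little between the labels in macrophages. Itgav, at 145 to 150 CPM in WT and 155 to 167 CPM in PHD2cko BMDMs, had a log2 fold change of 0.11 (95% confidence interval -0.02 to 0.23). For Cd44 the interval was -0.08 to 0.18, for Itgb5 -0.11 to 0.07 and for Itga5 -0.11 to 0.06, so that changes of more than about 1.13-fold in either direction lay outside the interval for these 3 genes. Itgb3, with only 132 to 187 counts a library, had a wider interval of -0.45 to 0.14. In all, the groups did not overlap for 5 of the 9 genes, Spp1, Itgav, Itgb1 and Itga9 above and Itga4 below, where this held for 31.9% of all genes. An unadjusted p under 0.05 was reached by 3 of the 9, where 19.0% of all genes reached it. The median log2 fold change of the 9 genes was 0.05, against 0.00 over all genes tested.

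Osteoclasts share the myeloid origin of macrophages and secrete osteopontin, so their markers were read beside these results. The summed level of 6 osteoclast markers was 139.7 to 157 CPM in WT and 238 to 256 CPM in PHD2cko BMDMs, with Calcr, the calcitonin receptor, at 0 in all. Atp6v0d2, a proton pump subunit, rose from 141 to 245 CPM (log2 fold change 0.80, adjusted p = 3.8e-05), and Dcstamp, a fusion protein, from 4.02 to 7.68 CPM (0.93, adjusted p = 0.0164, both by edgeR), while the other tested markers did not pass the threshold. Of 5 megakaryocyte and platelet markers, summed at 15.7 to 17.1 CPM in WT and 23.5 to 26.6 CPM in PHD2cko BMDMs, Pf4 passed the threshold upwards. Of the 23 macrophage markers, summed at 46570 to 47780 CPM in WT and 41770 to 43300 CPM in PHD2cko BMDMs without overlap, none passed it in BMDMs by edgeR, with 2 at an unadjusted p under 0.05, and of the 12 fibroblast markers none passed, with 1 under 0.05. The 7 neutrophil markers summed to at most 0.778 CPM in any library. Of the 7 B cell markers, summed at 196 to 202 CPM in WT and 160 to 174 CPM in PHD2cko BMDMs, Ighm was lower and Igkc, at 0 in WT and 0.950 CPM in PHD2cko BMDMs, was higher. The part of these cell types in the differences of Spp1 and Itga9 was not tested.

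**Figure D3:**
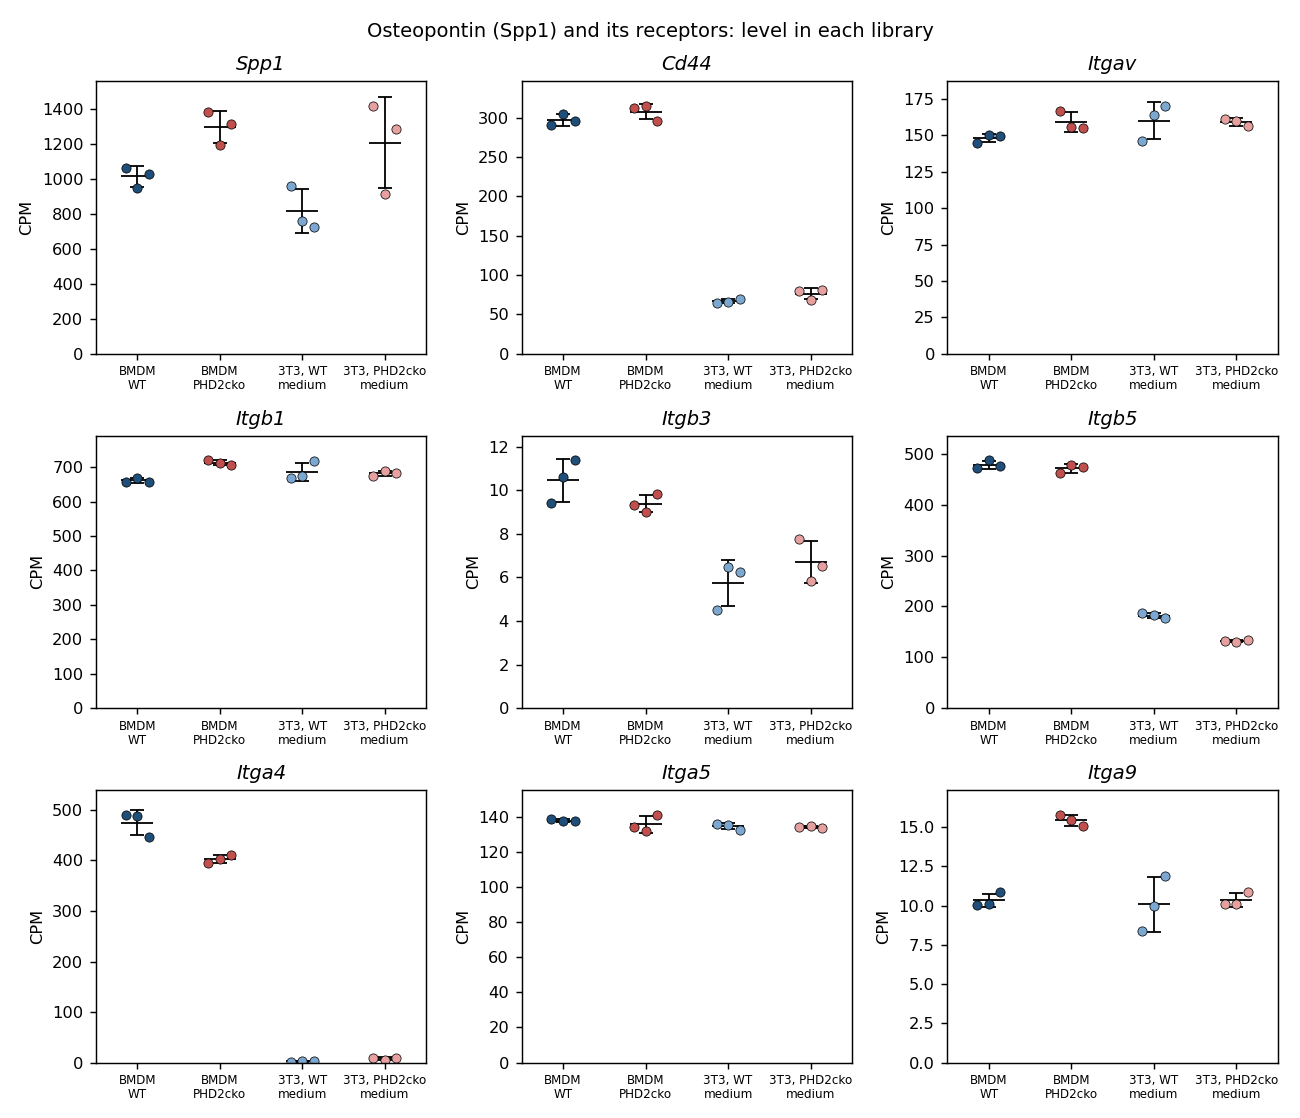
CPM of Spp1 and the 8 receptor genes in each library (points, replicates 1 to 3 from left to right) with the mean and SD of each group (bars), on axes that start at 0. In BMDMs the PHD2cko points lie above WT for Spp1, Itgav, Itgb1 and Itga9 and below for Itga4, while in 3T3 cells the 2 media separate only for Itgb5, lower in PHD2cko medium, and Itga4, higher.

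Fibroblasts in medium from PHD2cko macrophages were compared with those in medium from WT macrophages. Of the 9 genes, Spp1 and Itga4 rose and Itgb5 fell, where 15.7% of all genes passed the threshold, 8.93% upwards and 6.75% downwards. An unadjusted p under 0.05 was reached by 4 of the 9, where 29.2% of all genes reached it.

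Spp1 was at 958, 761 and 725 CPM in replicates 1, 2 and 3 in WT medium and at 1417, 914 and 1285 CPM in replicates 1, 2 and 3 in PHD2cko medium. Replicates 1 and 3 in PHD2cko medium lay above all others, but replicate 2 lay below replicate 1 in WT medium, so the groups overlapped. The means were 814 ± 126 and 1205 ± 261 CPM (SD, n = 3), and the log2 fold change was 0.57 (standard error 0.144, 95% confidence interval 0.25 to 0.88, 1.48-fold, adjusted p = 0.0191 by edgeR's quasi-likelihood test). The call was lost when replicate 1 (log2 fold change 0.43, adjusted p = 0.0873) or replicate 3 (0.52, adjusted p = 0.0768) in PHD2cko medium was left out, or replicate 2 (0.52, adjusted p = 0.0654) or replicate 3 (0.49, adjusted p = 0.0617) in WT medium. It was also lost with the 6 fibroblast libraries alone, with their own filter, scaling and spread (0.58, adjusted p = 0.0962). The main fit took the spread over both cell types, and the standard error of Spp1 was 0.1437 in fibroblasts and 0.1435 in BMDMs. The SDs of its level in BMDMs were lower, at 59.2 CPM in WT and 93.2 CPM in PHD2cko. Without replicate 1 in WT medium, the library that stood apart, the log2 fold change was 0.72 with an adjusted p of 0.00413, and over all alternatives the adjusted p ran from 0.000425 to 0.0962.

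Itgb5, which pairs with alpha v into a receptor for vitronectin and osteopontin, was at 187, 183 and 176 CPM in WT medium and at 131, 130 and 133.5 CPM in PHD2cko medium. The groups did not overlap, with the highest library in PHD2cko medium 42.8 CPM below the lowest in WT medium. The level fell by 0.47 on the log2 scale (standard error 0.0437, 95% confidence interval -0.56 to -0.37, 0.724-fold, adjusted p = 6e-05 by edgeR's quasi-likelihood test), and the call held under every alternative run. Taken against the other beta subunits, Itgb1 gave a log2 fold change of -0.01 (95% confidence interval -0.11 to 0.09) and Itgb3 one of 0.22 (-0.09 to 0.53), neither past the threshold.

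Itga4 was barely present in fibroblasts. It was at 24, 105 and 58 counts in WT medium, or 1.22, 3.81 and 3.07 CPM, and at 190, 94 and 198 counts in PHD2cko medium, or 9.76, 5.44 and 9.59 CPM. Replicates 1 and 3 in PHD2cko medium were again the high libraries, and the groups did not overlap on the CPM scale. The log2 fold change was 1.58 (standard error 0.277, 2.98-fold, adjusted p = 0.00223 by edgeR's quasi-likelihood test).

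Macrophage transcripts were present in the same libraries. Of the 23 macrophage markers, 22 rose in PHD2cko medium, and their summed level was 41.0 to 41.8 CPM in WT medium and 232 to 992 CPM in PHD2cko medium, with none of the 23 at 0 in either. Against the BMDM libraries of the matching label this is 0.0879% ± 0.00081 in WT medium and 2.34, 0.549 and 2.09% in replicates 1, 2 and 3 in PHD2cko medium, with p = 0.1 in a two-sided exact permutation test, the smallest that 3 against 3 libraries can give. In these bulk libraries, fewer cells of a type and less RNA per cell cannot be told apart. Multiplied by the Itga4 level of the BMDMs, these shares amounted to 78.4, 33.2 and 71.5% of the Itga4 level in the 3 libraries in PHD2cko medium. With the share taken without the 3 highest markers, an alternative chosen after the data were seen, it was 3.06, 0.777 and 2.78% in PHD2cko medium and 0.181 to 0.186% in WT medium, and the product amounted to 102, 47.0 and 95.3% of the Itga4 level in PHD2cko medium. After the amount from all markers was subtracted, 41, 63 and 56 counts were left, against 17, 95 and 51 in WT medium, and the log2 fold change was 0.23 with an adjusted p of 0.700 by edgeR, where the other alternatives ran from 4.63e-05 to 0.0521.

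For Spp1 the same product was small. The Spp1 level in fibroblasts was close to that in macrophages, so the macrophage share amounted to 1.74, 0.635 and 1.72% of the Spp1 level in replicates 1, 2 and 3 in PHD2cko medium, and after subtraction the log2 fold change was 0.58 with an adjusted p of 0.0178 by edgeR. The replicates nevertheless took the same order for both, with Spp1 and the macrophage markers highest in replicate 1, next in replicate 3 and lowest in replicate 2. With 3 libraries no relation between them was tested. For Itgb5, which was lower in these libraries, the share amounted to 1.62 to 6.81% of the level, and after subtraction the log2 fold change was -0.50 with an adjusted p of 2.18e-05. Among the 12 fibroblast markers, summed at 22450 to 24800 CPM in WT medium and 29190 to 30220 CPM in PHD2cko medium, Col3a1, Col5a1 and Pdgfra were higher and Thy1 was lower. None of 4 tested osteoclast markers passed the threshold in fibroblasts by edgeR (1 at an unadjusted p under 0.05), nor did the 1 tested neutrophil marker, while Pf4 and Ighm were higher, at 0.0473 against 0.936 CPM and 3.36 against 10.9 CPM.

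**Figure D4:**
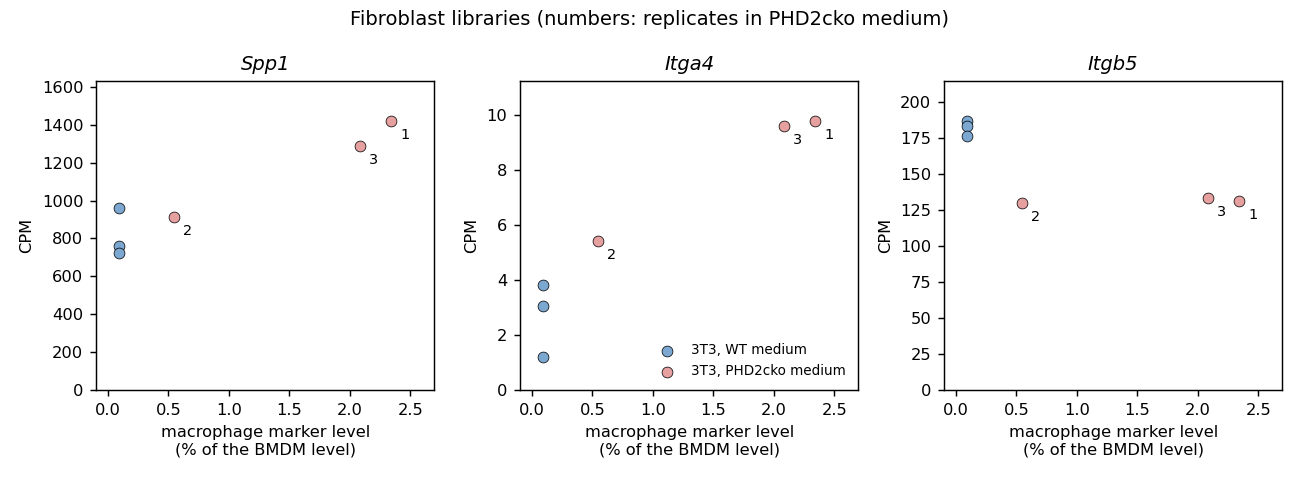
CPM of Spp1, Itga4 and Itgb5 (vertical axes, from 0) in the 6 fibroblast libraries against the summed macrophage marker level, in % of that of BMDMs with the label of the medium. In PHD2cko medium, replicates 1 and 3 are highest for both the markers and for Spp1 and Itga4, whereas Itgb5 is at 130 to 133.5 CPM in all 3 libraries.

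Among the other receptor genes of fibroblasts, Cd44 was at 64.8, 66.2 and 69.7 CPM in WT medium and 79.4, 68.7 and 81.0 CPM in PHD2cko medium. The groups overlapped, and replicate 2 in PHD2cko medium was again the low one. Its log2 fold change of 0.19 (standard error 0.0626) had an adjusted p of 0.0563 by edgeR's quasi-likelihood test. It passed the threshold with DESeq2 (0.0177), with limma-voom (0.0456), with DESeq2's size factors in edgeR (0.0475), with genes of at least 10 counts in every library (0.0425) and without replicate 2 in PHD2cko medium (0.00447), and ran up to 0.216 in the others. The macrophage share amounted to 2.01 to 7.36% of the Cd44 level in PHD2cko medium, and after its subtraction the log2 fold change was 0.15 with an adjusted p of 0.100. Itga5, the fibronectin receptor subunit, was at 132 to 136 CPM in all 6 libraries (95% confidence interval of the log2 fold change -0.09 to 0.08), and the interval was -0.13 to 0.11 for Itgav and -0.19 to 0.27 for Itga9. The median log2 fold change of the 9 genes was 0.04, against 0.00 over all genes, and 2 of the 9 did not overlap between the media, where 31.9% of all genes did not.

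**Figure D5:**
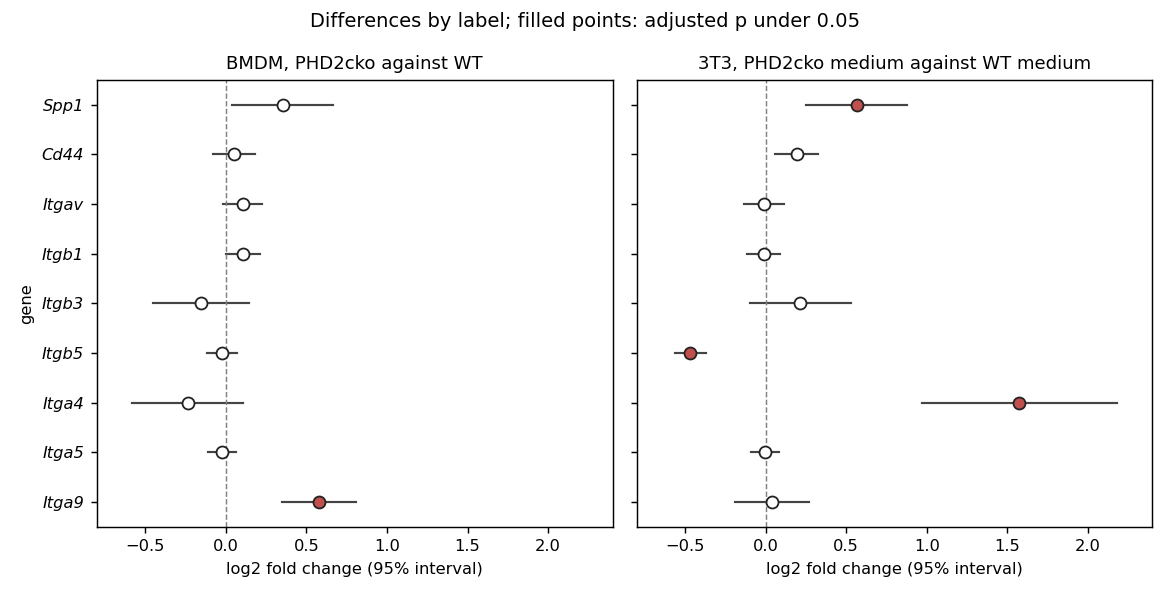
Log2 fold change of Spp1 and the 8 receptor genes (points) with 95% confidence intervals (lines) in PHD2cko against WT BMDMs (left) and in 3T3 cells in PHD2cko against WT medium (right), from edgeR's quasi-likelihood fit on all 12 libraries, with points past the threshold filled. Only Itga9 is filled in BMDMs, while Spp1, Itga4 and Itgb5 are filled in 3T3 cells, and the intervals of Itga5 are narrow around 0 in both.

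Whether the label difference itself differed between the cell types was tested with the interaction of label and cell type. It passed the threshold for 3 of the 9 genes, where 12.3% of all genes did, 7.71% upwards and 4.58% downwards, and all 3 of those at an unadjusted p under 0.05, where 25.3% of all genes were. For Itgb5 the difference in fibroblasts minus that in macrophages was -0.45 (95% confidence interval -0.58 to -0.31, adjusted p = 0.00054), for Itga4 1.81 (standard error 0.320, adjusted p = 0.00254) and for Itga9 -0.54 (-0.86 to -0.21, adjusted p = 0.0331, all by edgeR). For Itga9 the call was lost when any of 9 of the 12 libraries was left out (adjusted p up to 0.0786), and for Itga4 after subtraction of the macrophage share (0.47, adjusted p = 0.462). For Spp1 the interaction was 0.21 (95% confidence interval -0.23 to 0.65, adjusted p = 0.568). A difference of Spp1 between the cell types was therefore not detected, but the interval allows one of up to 0.65 on the log2 scale.

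Ratios of paired or competing subunits within a library, which do not depend on scaling between libraries, were compared by two-sided exact permutation tests over 3 against 3 libraries, for which 0.1 is the smallest p. The log2 ratio of Itgb3 to Itgb5 counts in fibroblasts was between -5.37 and -4.82 in WT medium and between -4.48 and -4.08 in PHD2cko medium, without overlap (difference 0.70, p = 0.1, exact permutation test). In BMDMs it was 0.13 lower in the PHD2cko libraries, with overlap (exact permutation p = 0.3). The ratio of Itga4 to Itga9 was 0.81 lower in the PHD2cko BMDM libraries on this scale, from 5.52 ± 0.136 to 4.71 ± 0.0609 (SD, n = 3, p = 0.1 by exact permutation test), also without overlap. In fibroblasts it was 1.67 higher (exact permutation p = 0.1), and 0.44 higher after subtraction of the macrophage share. That of Itga5 to Itgav was 0.13 lower in PHD2cko BMDMs (exact permutation p = 0.1) and differed by 0.0035 in fibroblasts (exact permutation p = 1). Over the 6 ratios the smallest adjusted p was 0.15.

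Macrophages and fibroblasts were compared directly in the WT groups, where cell type, medium and time differed together. Of the 9 genes, 4 were higher in WT BMDMs and none was lower by edgeR, where 85.3% of all genes passed the threshold, 40.4% upwards and 44.9% downwards, and 5 of the 9 had an unadjusted p under 0.05, where 85.7% of all genes did. The groups did not overlap for 5 of the 9, Cd44, Itgb3, Itgb5, Itga4 and Itga5, where 85.1% of all genes did not. Itga4 was the most different, at 446 to 490 CPM in WT BMDMs and 1.22 to 3.81 CPM in fibroblasts (log2 fold change 7.41, 95% confidence interval 6.89 to 7.92). Cd44 was 4.44-fold higher (log2 fold change 2.15 ± 0.0631, standard error), Itgb5 2.63-fold higher (1.39 ± 0.0439) and Itgb3 1.81-fold higher in macrophages (0.85 ± 0.140, all with an adjusted p of at most 7.1e-05 by edgeR). For the others, the levels of the 2 cell types were near each other. Itga5 was at 137 to 138 CPM in WT BMDMs and 132 to 136 CPM in fibroblasts (95% confidence interval of the log2 fold change -0.05 to 0.12), and the interval was -0.16 to 0.05 for Itgb1, -0.24 to 0.01 for Itgav and -0.19 to 0.27 for Itga9. Itgav passed the threshold without replicate 1 in WT medium (-0.18, adjusted p = 0.000566) and, as did Itgb1 (adjusted p = 0.0383), with genes of at least 10 counts in every library (adjusted p = 0.0131), over ranges of 0.000566 to 0.265 for Itgav and 0.0383 to 0.661 for Itgb1. For Spp1 the interval was 0.00 to 0.63 around 0.32, with an adjusted p of 0.055. It passed the threshold without replicate 1 in WT medium (0.44, adjusted p = 0.0109), with the replicate number as a block (0.0121), with the compared libraries alone (0.0216), with DESeq2's Wald test (0.0329) and with limma-voom (0.0446), and ran up to 0.181 in the others.

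Genes that act on osteopontin or compete for its receptors were taken as fixed lists. In BMDMs labelled PHD2cko, 2 of 5 tested osteopontin modifiers rose (median log2 fold change 0.20), where 3.38% of all genes rose. Mmp12, the macrophage elastase, rose from 532 to 874 CPM (log2 fold change 0.72, adjusted p = 0.0237 by edgeR), a call that was lost with any single library left out (adjusted p 0.0677 to 0.102). Mmp9, a gelatinase that also cuts osteopontin, was at 8, 3 and 4 counts in WT and 26, 19 and 26 counts in PHD2cko BMDMs (adjusted p = 0.00941 by edgeR). This call was lost with limma-voom (0.0782) and without WT replicate 2 (0.0516) or 3 (0.0512), over a range of 2.9e-05 to 0.0782. In fibroblasts 3 of 5 modifiers rose in PHD2cko medium, where 8.93% of all genes rose. Of these 3, Acp5 had passed the filter only through its level in BMDMs, at 7.95 CPM in WT. It dropped out when the fibroblast libraries were filtered alone. Mmp9 rose from 9.43 to 31.2 CPM (1.73, adjusted p = 2.6e-05), and its log2 fold change was 1.77 after subtraction of the macrophage share. Mmp12 rose from 5.32 to 14.7 CPM (1.45, adjusted p = 0.00135), but its log2 fold change was -0.81 after subtraction of the macrophage share. Acp5, the phosphatase that acts on osteopontin in osteoclasts, was at 0, 1 and 0 counts in WT medium and 4, 1 and 5 counts in PHD2cko medium, so its call (adjusted p = 0.0288) rests on a few counts, and it was lost in 4 of 6 cases with a library left out (adjusted p up to 0.113) and after subtraction of the macrophage share (adjusted p = 0.457). Of the osteopontin family, 1 of 4 genes could be tested, and it passed the threshold in neither cell type by edgeR, DESeq2 or limma-voom (log2 fold change -0.05 in BMDMs and -0.36 in fibroblasts).

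Among 11 other ligands of these receptors, 2 rose and 1 fell in PHD2cko BMDMs (median 0.39), where 6.73% of all genes passed the threshold in either direction. Thbs1, thrombospondin, fell from 23.8 to 9.84 CPM (log2 fold change -1.27, adjusted p = 2.2e-05). Mfge8, which bridges dying cells to alpha v integrins, rose from 206 to 265 CPM (0.36, adjusted p = 0.00088), and Edil3, which belongs to the same family, rose from 9.73 to 13.0 CPM (0.42, adjusted p = 0.0332), a call that was lost with any library left out. In fibroblasts 5 rose and 3 fell (median 0.04), where 15.7% of all genes passed. Postn, periostin, rose from 193 to 331 CPM (0.78, adjusted p = 0.00023), while Cyr61 fell from 87.2 to 56.0 CPM (-0.64, adjusted p = 0.00012) and Thbs1 from 1482 to 917 CPM (-0.69, adjusted p = 0.00036, all by edgeR). Thbs1 thus fell in both cell types, and it fell further in macrophages (interaction adjusted p = 0.0211). Between the cell types, 10 of the 11 ligands were lower in WT BMDMs than in fibroblasts, with a median log2 fold change of -7.92, where 44.9% of all genes were lower.

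Of the other integrin subunits, 16 of 20 could be tested. In PHD2cko BMDMs 1 rose and 3 fell (median -0.10), against 6.73% of all genes called. Itgb7, the alternative partner of alpha 4, fell from 299 to 184 CPM (log2 fold change -0.70, adjusted p = 2.8e-06), Itgal, the alpha subunit of LFA-1, from 44.1 to 22.5 CPM (-0.97, adjusted p = 6.8e-06) and Itga1, a collagen receptor subunit, from 7.46 to 4.63 CPM (-0.69, adjusted p = 0.013, all by edgeR; for Itga1 up to 0.0688 with a library left out). In fibroblasts 4 rose and 1 fell (median -0.10), against 15.7% of all genes called. Itgam and Itgb2, the subunits of the macrophage receptor Mac-1, rose from 0.503 to 27.5 and from 5.67 to 22.6 CPM, in libraries that held more macrophage markers, and BMDMs held 1277 and 989 CPM of them. After subtraction of the macrophage share, the log2 fold change of Itgb2 was 0.90 in place of 2.00 (adjusted p = 0.0012), and Itgam was left at 0 counts in each library in WT medium and at 230, 54 and 294 counts in PHD2cko medium. Itga8, another partner of beta 1 that reads the motif, fell from 45.3 to 32.0 CPM (-0.50, adjusted p = 0.00087), and it was at 2.71 CPM in WT BMDMs.

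Of the 8 genes of hyaluronan synthesis and CD44 linkage, none passed the threshold in BMDMs by edgeR, DESeq2 or limma-voom (median 0.01), with 1 at an unadjusted p under 0.05, and 3 rose in fibroblasts (median 0.21), where 8.93% of all genes rose. Has2, a hyaluronan synthase, rose from 17.1 to 27.2 CPM (0.67, adjusted p = 0.00123) and was at 0 in WT BMDMs, Msn, the membrane linker moesin, rose from 267 to 318 CPM (0.25, adjusted p = 0.018, up to 0.0819 with a library left out), and Srgn, a proteoglycan of blood cells that binds CD44, rose from 4, 4 and 7 to 102, 15 and 86 counts (all by edgeR). Of 24 tested integrin adaptors and kinases, 2 rose and 2 fell in BMDMs (median -0.02) and 4 rose in fibroblasts (median 0.02). Of all genes, 6.73% were called in BMDMs and 8.93% rose in fibroblasts. The actin crosslinkers Actn1 (140.0 to 171 CPM, adjusted p = 0.00783) and Actn4 (272 to 309 CPM, adjusted p = 0.0236) rose in PHD2cko BMDMs and zyxin, Zyx, fell (179 to 156 CPM, adjusted p = 0.039), while Actn4 lost its call with any library left out and Zyx with any of 5 of the 6. In fibroblasts the 3 with the smallest adjusted p were Fermt3, Ptk2b and Parvg, which were at 0.474 to 1.52 CPM in WT medium and at 2.43 to 10.1 CPM in PHD2cko medium, and at 24.6 to 334 CPM in WT BMDMs. After subtraction of the macrophage share their log2 fold changes were 1.53 in place of 2.38 for Fermt3, 2.27 in place of 2.86 for Ptk2b and 2.24 in place of 2.34 for Parvg, all still past the threshold.

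Genes were also ranked by how closely their mean log2(CPM + 1) followed each of the 9 over the 4 groups, after centring, among 10655 genes with at least 10 CPM in the group where they were highest. Closest to Spp1 were H2afv (root mean square difference 0.0406), Mastl (0.0783), Casc5 (0.0791), Cdca5 (0.0878) and Mcm10 (0.0905). H2afv was at 28.3 and 34.1 CPM in WT and PHD2cko BMDMs and at 22.0 and 30.9 CPM in fibroblasts in WT and PHD2cko medium, which follows the order of Spp1. The gene closest to Itga9 was Zfp395 (0.0353), that closest to Itgb5 was Flcn (0.0334) and that closest to Itga4 was Icam1 (0.0407). For Cd44 it was Ube2l6 (0.0156), for Itgav Sap30l (0.0172), for Itgb1 Etfdh (0.00776), for Itgb3 Depdc5 (0.00735) and for Itga5 Tor1b (0.00433). Each match rests on 4 group means.

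Reads of 3 of these genes may be shared with others. Spp1 overlaps Gm42793 on the same strand over 309 bases of annotated exon, Itga4 overlaps Cerkl over 1124 bases and Itgav overlaps Gm13684 over 634 bases on the opposite strand, and without a statement that strand was used in counting, reads from such partners cannot be told apart. Cd44 spans 19 exons in its longest transcript and is known for many splice forms, which the gene-level counts sum.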

How the data were processed

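PolyA RNA of 6 BMDM and 6 3T3 libraries was measured. The authors deposited estimated counts per gene, made with Kallisto on GRCm38 per the labels, without normalization; all values were whole numbers, so none was rounded, and how they became whole is not given in the sources used here. Every column was mapped to a sample (0 left out). The genes, lists and tests were chosen with earlier results of these data known, so no list is independent evidence.

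With edgeR 4.0.16 in R 4.3.3, filterByExpr kept 14285 of 32544 genes. All 12 libraries were fitted with TMM normalization, 1 coefficient per group, no covariate and 1 estimate of the spread per gene over both cell types. Genes were tested two-sided by quasi-likelihood F-tests with Benjamini-Hochberg adjusted p-values taken over all 14285 genes, at a threshold of 0.05. Subunit ratios and the macrophage marker level were compared by exact permutation tests (SciPy 1.17.1). The macrophage share of a fibroblast library was the summed CPM over the total count of 23 markers, divided by its mean in BMDMs of the same label; share times the mean BMDM profile was subtracted in 1 alternative. Other alternatives were DESeq2's size factors, the Wald test of DESeq2 1.42.0, limma 3.58.1 with voom (the study's method), at least 10 counts in every library compared, no filter beyond 1 count, the compared groups alone, a block for replicate number, leaving out libraries singly, and exon union length. Depth was 15516465 to 25199770 counts a library. Confidence intervals are from the edgeR fit and include the spread between libraries, estimated over both cell types. The floor of 3 counts covers counting error only.

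Positions and lengths are from GENCODE on GRCm38 and promoters from RefSeq. All 9 genes are named. From the lists (osteopontin family, modifiers, other ligands, CD44 ligand synthesis and linkers, other integrin subunits, adaptors and kinases), the 3 genes with the smallest adjusted p per comparison by label were named. The pattern search took the 5 genes nearest to Spp1 and the nearest to each receptor gene. Cell type markers that passed the threshold were named after their values were seen. The fit was tested on simulated data with known changes. One further feature of the mice, shared by both BMDM groups, is not reported here.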

Additional observations from a re-analysis of the deposited data

Results flagged for a closer look

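The label difference, PHD2cko against WT, was itself different between fibroblasts and macrophages for 20 of 42 named genes, most of them named because they passed a threshold by label, by the interaction term of edgeR's quasi-likelihood fit. The count includes Acp5, for which the test cannot decide, as given below. Values are the log2 difference in fibroblasts minus that in macrophages. Of all genes, 12.3% passed the threshold in this test. Among the osteopontin receptor genes they were -0.45 for Itgb5, 1.81 for Itga4 and -0.54 for Itga9. Egln1, the targeted gene, gave -0.27. The call of Egln1 was lost in 8 of 12 fits with a library left out (adjusted p up to 0.0857), with the replicate block (0.0547) and with no filter beyond 1 count (0.064).

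Genes that macrophages hold at a far higher level than fibroblasts gave 5.65 for Itgam, 1.97 for Itgb2, 2.43 for Fermt3, 2.74 for Ptk2b, 3.00 for Parvg and 3.98 for Srgn, in libraries whose macrophage marker level was higher in PHD2cko medium. Parvg also fell in PHD2cko BMDMs (-0.67, adjusted p = 0.0425 by edgeR), while the rest did not pass the threshold there. After subtraction of the macrophage share, the difference in fibroblasts alone was 0.90 in place of 2.00 for Itgb2, 1.53 in place of 2.38 for Fermt3, 2.27 in place of 2.86 for Ptk2b, 2.24 in place of 2.34 for Parvg and 3.69 in place of 3.91 for Srgn, all past the threshold, while Itgam was left at 0 counts in WT medium. The interaction of these genes after subtraction is not given here. The cell type markers Ighm and Pf4 gave 2.00 and 3.56. Acp5 gave 2.85, a fitted value that depends on the prior count, since it had at most 5 counts in any fibroblast library. It passed the filter only through its level in BMDMs, at 7.95 CPM in WT. The test therefore cannot decide whether the label difference of Acp5 differed between the cell types.

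Of the others, Itgal gave 1.05, Itgb7 0.79, Thbs1 0.58 and Zyx 0.25, all with a fall in PHD2cko macrophages. Mfge8 gave -0.62, Actn1 -0.29 and Actn4 -0.23, all with a rise there. In fibroblasts Thbs1 fell too (-0.69), and so did Mfge8 (-0.26, adjusted p = 0.00563 by edgeR).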

How the results depend on the processing

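Of the 9 genes, the number past the threshold in BMDMs was 1, against 2 with DESeq2's Wald test and 4 with the BMDM libraries alone, and in fibroblasts 3, against 1 with the fibroblast libraries alone, 2 after subtraction of the macrophage share and 4 with DESeq2's size factors, DESeq2's Wald test, limma-voom or at least 10 counts in every library. With a library left out it was 1 in each case in BMDMs, 2 to 4 in fibroblasts, 4 to 6 between the cell types and 2 to 3 in the interaction. With the replicate block these counts were 1, 3, 5 and 3. Same-numbered libraries of 1 cell type did not deviate together (mean correlation -0.00348, from -0.103 to 0.0524), so the numbers were not taken as pairs. Over all genes, 961 were called in BMDMs, 2534 with those libraries alone, 815 with the replicate block and 527 without WT replicate 1, and in fibroblasts 2240, with 912 in the fibroblast libraries alone, 1260 without replicate 3 in PHD2cko medium and 2757 without replicate 1 in WT medium. The interaction uses all libraries, so it has no fit on the compared groups alone. After subtraction of the macrophage share, the log2 ratio of Itga4 to Itga9 in fibroblasts differed by 0.44 in place of 1.67, and Mmp12 by -0.81 in place of 1.45 (adjusted p = 0.158). Fits on the compared groups alone had their own filter, scaling and estimate of the spread. Which of these bears on the shifts with the libraries fitted was not tested. Depth limits Itga4, Mmp9 and Acp5, which had few counts in the groups named, and the gene-level counts cannot resolve splice forms or receptor pairs.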

Other observations

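Replicate 1 of the fibroblasts in WT medium, the library that stood apart, had the highest Spp1, Itgb5 and Itga5 of its group and the lowest Cd44, Itgav, Itgb1, Itgb3, Itga4 and Itga9. Spp1 was at 958 CPM there against 761 and 725 CPM, and Itga4 was at 1.22 CPM against 3.81 and 3.07 CPM.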
